A study of Mus musculus with 6 samples.

Results

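Mitochondrially encoded transcripts are the RNAs made from the circular genome inside mitochondria. The members were taken by position, as every gene that the deposited table places on chromosome MT (GRCm39), which gave 37 of 56691 genes. They comprised 13 mRNA genes, 2 rRNA genes and 22 tRNA genes, with 28 genes on the plus strand and 9 on the minus strand. The RNA came from mouse KVTR cells, labelled as primary cells isolated from clear cell renal carcinoma, a kidney cancer, and was sequenced with dopamine (3 libraries) or as an untreated blank (3 libraries). The sources used here do not give dose, duration, strain, genotype or animal age. The blank columns carry the number 2, the number 3 and no number, and are called blank 2, blank 3 and the unnumbered blank. Where 3 values are given per group, they stand in the order blank 2, blank 3, unnumbered blank and then dopamine 1, 2, 3. The comparison asks how transcript levels differ with dopamine, a catecholamine transmitter, in a series whose title concerns the dopamine transporter, the spliceosome and resistance to checkpoint inhibitors.

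Each strand of the mitochondrial genome is transcribed by the polymerase Polrmt into a long precursor. The tRNAs stand between most rRNAs and mRNAs, and their excision frees the neighbouring transcripts. The mRNAs encode core subunits of respiratory complexes I, III, IV and V, to which the nucleus adds many more subunits, and the rRNAs and tRNAs serve the mitochondrial ribosome that translates them. Kidney tubule cells are rich in mitochondria, and clear cell renal carcinoma is known for reduced oxidative metabolism. Parts of the mitochondrial genome also exist as copies within nuclear chromosomes, which RNA reads can match as well.

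The 6 libraries held 16771499 to 23375622 counts, and a count of 0 allows a level of up to 3 counts, equal to 0.128 to 0.179 CPM, the counts scaled to a common library size. The kidney label was checked against 12 markers of renal epithelium and clear cell carcinoma, of which 7 reached 1 CPM in any library and 2 did so in all 6. The tubule genes Cdh16, Slc34a1 and Umod stayed below 1 CPM in all 6 libraries. The summed level of the 12 markers ran from 94.7 to 242 CPM across blank and from 100.03 to 399 CPM across dopamine libraries, most of it from Lrp2. The carbonic anhydrase Car9, known as a marker of clear cell carcinoma, stood at 1.09 to 2.81 CPM and the tubule endocytic receptor Lrp2 at 87.1 to 384 CPM, while Pax2, Pax8, Epcam, Cdh1 and Krt18 reached 1 CPM in some libraries only. The data thus go against the label in part of its markers, while others were present. Of 10 astrocyte markers, 9 reached 1 CPM and 8 did so in all libraries, with sums of 803 to 6236 CPM for blank and 757 to 5197 CPM for dopamine, and Gfap ran from 32.4 to 1630 CPM. All 8 fibroblast markers reached 1 CPM and 7 did so in all libraries, with sums of 2055 to 3504 and 555 to 3298 CPM. Of 6 leukocyte markers, 2 reached 1 CPM and 1 did so in all libraries, with sums of 34.2 to 74.8 CPM for blank and 85.7 to 167 CPM for dopamine. The unnumbered blank stood apart, with the proliferation marker Mki67 at 73.2 CPM against 0.80 to 4.57 CPM in the other 5 libraries. Dopamine 1 also differed from dopamine 2 and 3 and held the lowest dopamine sums of astrocyte and fibroblast markers. Its astrocyte marker Slc1a3 stood at 91.0 against 1952 and 1305 CPM, and its fibroblast marker Dcn at 4.93 against 364 and 262 CPM. The fibroblast marker Acta2, at 143 against 97.7 and 304 CPM, did not set it apart. The part of these differences in the results below was not tested.

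A run of 7 nuclear genes on chromosome 1 repeats part of the mitochondrial genome almost letter for letter, and 3 pairs of stretches are printed because they show where a read can and cannot be placed. The first 90 bases of mt-Co2 (chrMT:7013-7102, plus strand) are the same as those of its nuclear copy Gm28661. The first 90 bases of mt-Nd3 (chrMT:9459-9548, plus strand) differ from those of Gm28438 by T3C, written as the mitochondrial base, the position from the transcript's start and the nuclear base. A stretch at the start of mt-Cytb (chrMT:14146-14235, plus strand) is set beside its closest nuclear match, Gm11410 on chromosome 4, from which it differs by G14A, C24T, C61T, T66C and C78T. Capitals mark the differing bases. Sequences are GENCODE vM21 transcripts (GRCm38), in which all 37 mitochondrial genes have the same positions, strands and lengths as in the deposited table.
mt-Co2: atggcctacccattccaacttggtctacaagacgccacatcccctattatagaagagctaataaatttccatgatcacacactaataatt
Gm28661: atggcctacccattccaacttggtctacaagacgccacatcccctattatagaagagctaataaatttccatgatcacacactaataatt
mt-Nd3: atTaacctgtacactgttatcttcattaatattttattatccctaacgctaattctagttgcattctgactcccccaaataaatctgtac
Gm28438: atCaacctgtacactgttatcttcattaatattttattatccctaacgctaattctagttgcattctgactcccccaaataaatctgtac
mt-Cytb: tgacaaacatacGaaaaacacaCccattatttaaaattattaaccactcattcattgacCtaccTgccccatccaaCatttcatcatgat
Gm11410: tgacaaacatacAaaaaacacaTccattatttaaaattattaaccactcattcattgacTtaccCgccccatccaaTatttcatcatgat

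In the deposited table the copies span 4663 bases of chromosome 1 (GRCm39, 24650616 to 24655278, minus strand), and they match positions 6390 to 11042 of the mitochondrial genome. They are Gm29216 for the end of mt-Co1, Gm28661 for mt-Co2, Gm10925 for mt-Atp6, Gm28437 for mt-Co3, Gm28438 for mt-Nd3, Gm10222 for mt-Nd4l and Gm28439 for the start of mt-Nd4. Over 4140 aligned bases the 7 pairs differed at 2, and 5 pairs had no difference. The copies also keep the order of the mitochondrial genes, and 5 of the 6 steps from one copy to the next have the same length as in the mitochondrion. The remaining step, from mt-Nd3 to mt-Nd4l, is 74 bases in the mitochondrion and 75 in the nucleus and holds the tRNA gene mt-Tr.

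Levels per length split the mRNAs into 2 sets that did not meet in any library. The 6 genes mt-Co2, mt-Atp8, mt-Atp6, mt-Co3, mt-Nd3 and mt-Nd4l, which follow one another on chrMT:7013-10173, lay at 0.86 to 148 FPKM (fragments per kilobase of exon, scaled to the library total). The other 7 mRNAs lay at 877 to 16872 FPKM. The lowest mean of those 7 was 19.9 times the highest mean of the 6. mt-Co1 and mt-Co2, which encode subunits of the same complex IV and lie next to each other apart from tRNA genes, differed 183-fold in mean FPKM. In counts, the 6 genes made up 0.174, 0.163 and 0.206% of mitochondrial mRNA counts in blank, and 0.226, 0.251 and 0.424% in dopamine libraries. The low set was thus low in all 6 libraries, blank and dopamine alike.

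**Figure D1:**
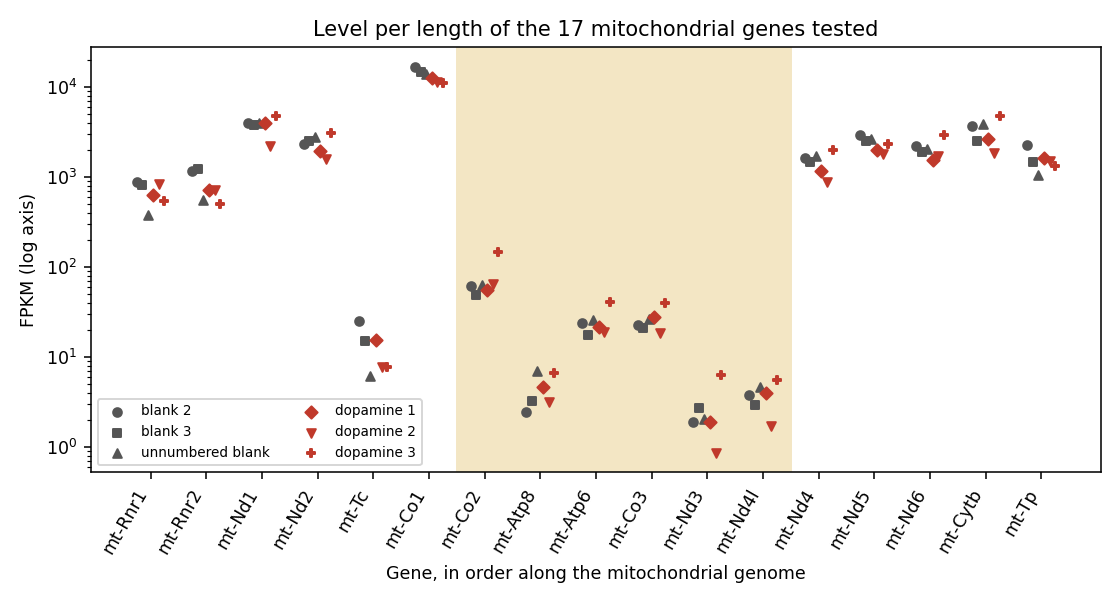
Level per length (FPKM, log axis) of the 17 mitochondrial genes tested, in genome order, with 1 point per library (grey, blank; red, dopamine). The shaded genes from mt-Co2 to mt-Nd4l lie at 0.86 to 148 FPKM, below the other 7 mRNAs at 877 to 16872 FPKM in every library.

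The low set and the copied stretch cover much the same genes. Windows of 150 bases, the read length in the labels, were compared with all 141730 transcripts of GENCODE vM21. In mt-Co2 and mt-Atp6, 99.4% of windows were identical to a nuclear transcript, as were 99.8% in mt-Co3, 97.0% in mt-Nd3 and 98.0% in mt-Nd4l. The share was 59.2% in mt-Nd4 and 23.6% in mt-Co1, which the copies cover in part, and 0% in mt-Nd1, mt-Nd2, mt-Nd5, mt-Nd6, mt-Cytb and both rRNAs. mt-Atp8 also had 0%, although it was in the low set. Its closest match among annotated nuclear transcripts was Gm28925 on chromosome 1, at 81.4% identity over 167 bases. The step from the end of Gm28661 to the start of Gm10925 is 234 bases, the same as from mt-Co2 to mt-Atp6. The nuclear sequence between these copies was not compared.

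Counts of the low genes were of the same order as those of their copies. mt-Co2 had 761, 613 and 853 counts in blank and 646, 1036 and 2366 in dopamine libraries, and Gm28661 had 599, 529 and 675 against 495, 802 and 1832. Per count of the copy there were thus 1.16 to 1.31 counts of mt-Co2, a narrow range over libraries in which mt-Co2 itself ran from 613 to 2366 counts. The ratio was 0.575 to 0.733 for mt-Atp6, 1.24 to 1.69 for mt-Co3 and 0.75 to 1.44 for mt-Nd4l. For mt-Nd3 it was 0.0376 to 0.297, so its copy had the larger count in every library. mt-Co1 and mt-Nd4, of which chromosome 1 holds only a part, had 281 to 1011 and 183 to 303 counts per count of that copy. A less similar match to mt-Co1, Gm13340 on chromosome 2, covers 100% of the gene at 97.6% identity. The chromosome 1 copies held 1967 to 5359 counts per library in sum. How reads with several equal matches were counted is not given in the sources used here, so the levels of the low genes are uncertain, and the part of the copies in them was not tested.

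**Figure D2:**
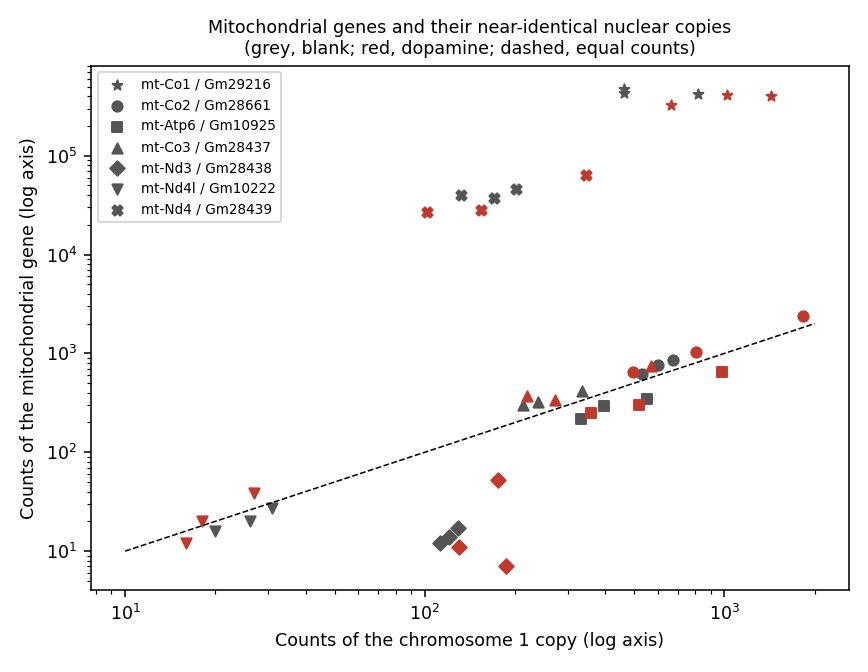
Counts of 7 mitochondrial genes (vertical, log axis) against their chromosome 1 copies (horizontal, log axis), 1 point per library and gene (grey, blank; red, dopamine), with a dashed line at equal counts. mt-Co2, mt-Atp6, mt-Co3 and mt-Nd4l lie near the line at 0.575 to 1.69 counts per count of the copy, mt-Nd3 lies below it, and mt-Co1 and mt-Nd4 lie far above it at 183 to 1011.

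Among the remaining mRNAs, mt-Co1 (ENSMUSG00000064351, chrMT:5328-6872, plus strand) had the highest level per length, with a mean of 13492 FPKM over the 6 libraries and 42.4 to 56.7% of all mitochondrial counts. mt-Nd1 followed at 3797 FPKM, then mt-Cytb at 3236, mt-Nd5 at 2372, mt-Nd2 at 2370, mt-Nd6 at 2060 and mt-Nd4 at 1472 FPKM. The range of mt-Co1 lay above those of all other members, whereas the ranges of each neighbouring pair from mt-Nd1 to mt-Nd4 overlapped between libraries. mt-Nd6, which encodes a complex I subunit, is the only mRNA gene on the minus strand. Its end overlaps that of mt-Nd5 on the opposite strand (chrMT:13552-13565), and since the kit does not mark strand, reads from either strand over mt-Nd6 cannot be told apart.

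Both rRNAs had lower mean levels per length than the 7 abundant mRNAs. The large ribosomal subunit RNA mt-Rnr2 averaged 813 FPKM and the small subunit RNA mt-Rnr1 682 FPKM, and their ranges overlapped. SMART-Seq chemistry primes cDNA from poly(A) tails, and the share of tailed mitochondrial rRNA in these cells was not tested.

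Few tRNA genes had counts, and those that did are annotated on the minus strand. All 14 on the plus strand, among them mt-Tt for threonine, had 0 counts in all 6 libraries, as did 5 of the 8 on the minus strand. mt-Tn, for asparagine, had 1 count in blank 2 and 2 in dopamine 3. mt-Tp, the proline tRNA, had 2733, 1786 and 1413 counts in the blank and 1841, 2366 and 2100 in the dopamine libraries. mt-Tc, the cysteine tRNA, had 30, 18 and 8 counts in blank and 17, 12 and 12 in dopamine libraries. Every tRNA count therefore fell on a minus-strand gene, and mt-Tp held nearly all of them. The 4 sequences show how alike in length a counted and an uncounted tRNA are: mt-Tp (chrMT:15356-15422, minus strand) and its direct neighbour mt-Tt (chrMT:15289-15355, plus strand) have 67 bases each, mt-Tc (chrMT:5192-5257, minus strand) has 66 and mt-Tn (chrMT:5089-5159, minus strand) has 71. Capitals mark the anticodon.
mt-Tp: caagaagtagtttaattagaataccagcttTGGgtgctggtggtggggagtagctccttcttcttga
mt-Tt: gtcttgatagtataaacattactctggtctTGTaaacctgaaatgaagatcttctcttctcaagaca
mt-Tc: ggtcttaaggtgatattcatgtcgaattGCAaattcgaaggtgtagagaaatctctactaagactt
mt-Tn: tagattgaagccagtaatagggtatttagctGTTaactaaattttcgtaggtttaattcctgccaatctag

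At 59 to 75 bases all 22 tRNA genes are shorter than a read. mt-Tp is the last gene of the mitochondrial genome in the table, with no gene between it and the end of the numbered sequence. The genome is circular, and the stretch from mt-Tp round to mt-Tf at position 1 was not measured. Between mt-Tf and mt-Tp in numbered order, mt-Tn and mt-Tc flank the only gap of more than 10 bases between annotated genes. That gap is 32 bases long. Without strand, reads from a tRNA and from an RNA of the opposite strand across it cannot be told apart, and precursors that span the gene were not separated from mature tRNA.

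As a share of all counts, summed mitochondrial mRNA was lower in all 3 dopamine libraries than in all 3 blank libraries. It took 4.53, 3.97 and 4.12% in blank and 3.46, 2.91 and 3.91% in dopamine libraries (4.2 ± 0.29 against 3.43 ± 0.50%, SD, n = 3). The groups did not overlap, but blank 3 and dopamine 3 were close. A 2-sided exact permutation test gave p = 0.1, the smallest that 3 against 3 allow, and an adjusted p of 0.28 over the 14 measures of share, composition and balance. These shares divide by plain column sums, whereas single genes are scaled by TMM, edgeR's normalization for library composition. The TMM factors were 0.943 for dopamine 3, 1.03 for blank 3 and 1.06 for the unnumbered blank. On that scale the summed mRNA of dopamine 3 lay above that of both these blank libraries, so the groups overlapped. mt-Co1 weighs most in this sum, with 42.4 to 56.7% of all mitochondrial counts, and was the only mRNA without overlap between groups in CPM. Of the 13 mRNAs, 6 lay on the lower and 7 on the higher side, and dopamine 3 held the highest CPM of 11. In bulk RNA, fewer cells of a type and less RNA per cell cannot be told apart. rRNA took 0.270, 0.270 and 0.125% in blank and 0.173, 0.194 and 0.131% in dopamine libraries (exact permutation p = 0.4, adjusted p = 0.80), and the groups overlapped through the low unnumbered blank. tRNA took 0.0154, 0.0099 and 0.0072% against 0.0111, 0.0102 and 0.0091% (exact permutation p = 0.9), with the blank libraries on both sides of the dopamine libraries. The nuclear 18S rRNA gene Rn18s-rs5, which is not polyadenylated, took 1.83, 1.07 and 2.54% in blank and 1.69, 1.62 and 3.38% in dopamine libraries. It was highest in dopamine 3 and the unnumbered blank, the libraries with the lowest mitochondrial rRNA shares, and its part was not tested.

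**Figure D3:**
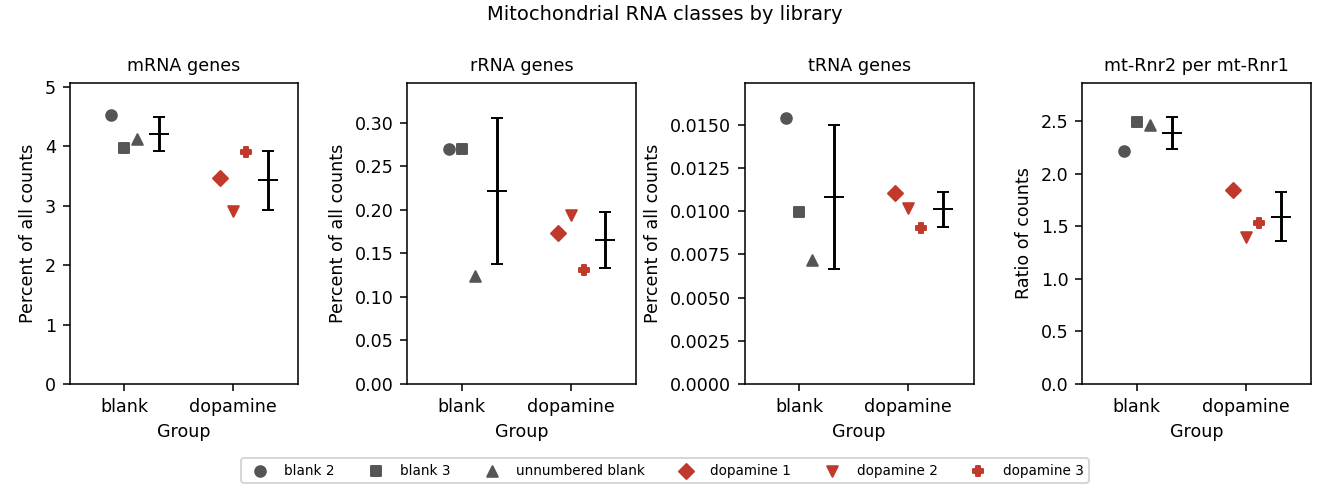
Percent of all counts taken by mitochondrial mRNA, rRNA and tRNA genes, and the ratio of mt-Rnr2 to mt-Rnr1 counts, 1 point per library, with mean and SD beside each group of 3. The mRNA share is 2.91 to 3.91% in dopamine against 3.97 to 4.53% in blank libraries, and the rRNA ratio is 1.40 to 1.84 against 2.21 to 2.49.

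Within the rRNAs, the balance of the large to the small subunit RNA was lower with dopamine. There were 2.21, 2.49 and 2.46 counts of mt-Rnr2 per count of mt-Rnr1 in the blank and 1.84, 1.40 and 1.54 in the dopamine libraries (2.39 ± 0.15 against 1.59 ± 0.23, SD, n = 3). The groups were separate, with an exact permutation p of 0.1 and an adjusted p of 0.28. mt-Rnr1 (ENSMUSG00000064337, chrMT:70-1024) and mt-Rnr2 (ENSMUSG00000064339, chrMT:1094-2675) lie next to each other with the valine tRNA gene mt-Tv between them. In CPM scaled by TMM, edgeR's normalization for library composition, mt-Rnr2 stood at 1932, 1871 and 839 in blank and 1081, 1166 and 841 in dopamine libraries (log2 fold change -0.59 ± 0.38 SE). mt-Rnr1 stood at 872, 751 and 341 against 586, 835 and 548 CPM (0.0038 ± 0.39). Both genes were lowest in the unnumbered blank, and its ratio of 2.46 was nonetheless within the blank range.

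No mitochondrial gene passed the test. edgeR's quasi-likelihood test with Benjamini-Hochberg adjustment over all 15420 genes tested called 0 of the 17 members tested (adjusted p = 0.9997 for each), and 0 had an unadjusted p under 0.05, where 2.94% of all genes did. It also called 0 genes in the whole table (0%), and DESeq2 called 21 of 23076 genes (0.091%) but 0 members (smallest member adjusted p = 0.9999). Over the alternatives, the smallest adjusted p of a member was 0.545. Of the 17 members 8 lay on the higher and 9 on the lower side, where 51.7 and 48.3% of all genes did, with a median log2 fold change of -0.057, against 0.012 over all genes tested. The 20 untested members are the tRNA genes with 3 or fewer counts in all. The labels do not say that the libraries came from separate cultures, so these p-values measure the spread between libraries, which may be technical.

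**Figure D4:**
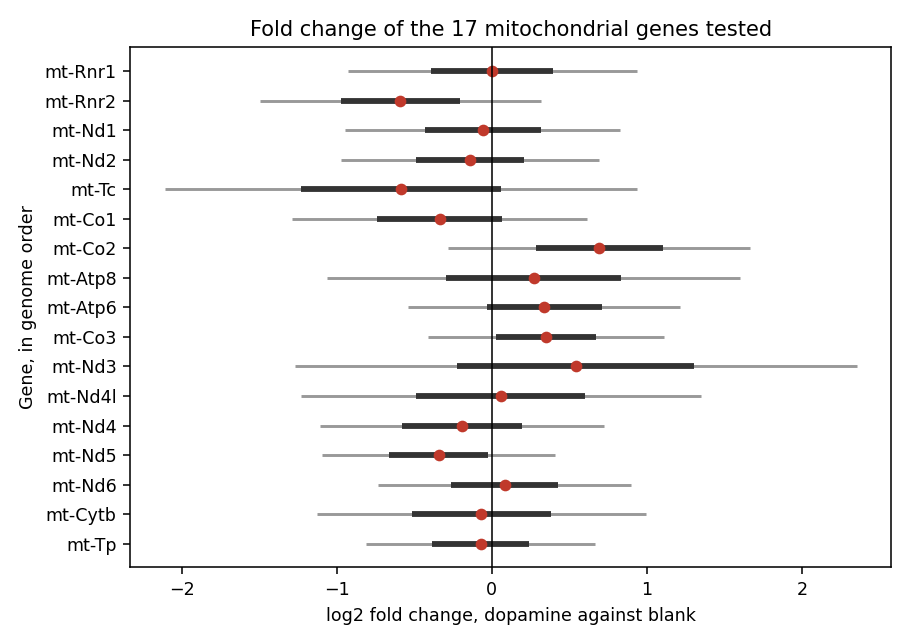
Log2 fold change, dopamine against blank, of the 17 mitochondrial genes tested, in genome order (point, edgeR estimate; thick bar, SE; thin bar, 95% interval). All 17 intervals hold 0, and the estimates run from -0.59 for mt-Rnr2 to 0.69 for mt-Co2.

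Of the complex IV mRNAs, mt-Co1, the catalytic subunit, stood at 27082, 22228 and 20524 CPM in the blank and 18872, 18227 and 18255 CPM in the dopamine libraries. All 3 dopamine values were below all blank values and nearly equal to each other (log2 fold change -0.34 ± 0.40 SE, 95% interval -1.29 to 0.62). It was the 1 member of 17 with no overlap between groups, where 8.48% of all genes had none, 4.47% with dopamine below and 4% with dopamine above. mt-Co2, which receives electrons from cytochrome c, stood at 44.0, 32.8 and 40.9 against 37, 45.8 and 108 CPM (0.69 ± 0.41, 95% interval -0.28 to 1.67), the smallest unadjusted p of the members (0.135). Only dopamine 3 was high, and without it the value was 0.080. mt-Co3, the other core subunit, stood at 18.7, 16.2 and 19.8 against 21.2, 15.1 and 33.6 CPM (0.35 ± 0.32). Without dopamine 3 its value was -0.0070.

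Of the complex I mRNAs, mt-Nd5, a proton-pumping subunit, stood at 5509, 4429 and 4602 CPM in blank and 3466, 3441 and 4568 CPM in dopamine libraries (-0.34 ± 0.32). Dopamine 3 alone reached into the blank range. mt-Nd1, which lies near the ubiquinone site, stood at 3970, 3522 and 3651 against 3648, 2215 and 4850 CPM (-0.057 ± 0.37), and dopamine libraries held both its lowest and its highest value. The same held for the pump subunits mt-Nd2 (2523, 2524 and 2713 against 1952, 1720 and 3369 CPM, -0.14 ± 0.35) and mt-Nd4 (2316, 1982 and 2222 against 1531, 1248 and 2926 CPM, -0.19 ± 0.39). mt-Nd6 stood at 1182, 954 and 1005 against 778, 919 and 1632 CPM (0.084 ± 0.35). The short membrane subunits mt-Nd3 and mt-Nd4l were near the floor, at 0.31 to 2.37 and 0.53 to 1.77 CPM (0.54 ± 0.77 and 0.060 ± 0.55). The nuclear copies are a direct limit here: with their counts added to the mitochondrial gene, a setting chosen after seeing the data, mt-Nd3 gave 0.33 and mt-Nd4l gave -0.20.

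mt-Cytb, the cytochrome b of complex III, stood at 4351, 2832 and 4253 CPM in blank and 2940, 2212 and 5755 CPM in dopamine libraries (-0.068 ± 0.45), with dopamine 3 highest and dopamine 2 lowest. The complex V subunit genes had low counts throughout, and as members of the low set their levels are uncertain. mt-Atp6, part of the proton channel, stood at 16.8, 11.6 and 16.5 against 14.3, 13.2 and 29.3 CPM (0.34 ± 0.37), and mt-Atp8, a small stalk subunit, gave 0.27 ± 0.56. Of the tRNAs, mt-Tp stood at 158, 95.4 and 67.7 against 106, 105 and 95.5 CPM (-0.072 ± 0.31), and mt-Tc at 0.38 to 1.74 CPM gave -0.58 ± 0.64.

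The highest and the lowest mRNA levels gathered in single libraries. Dopamine 3 held the highest scaled level of 11 of the 13 mRNAs, and blank 2 that of mt-Co1 and mt-Nd5. Dopamine 2 held the lowest level of 9 of the 13. Dopamine 3 therefore sets the direction of several values: without it the log2 fold changes of mt-Atp8, mt-Atp6, mt-Nd3, mt-Nd4l and mt-Nd6 were -0.088, -0.12, -0.69, -0.40 and -0.30. Without dopamine 2, mt-Nd1, mt-Nd2, mt-Nd4 and mt-Cytb lay at 0.18, 0.025, 0.020 and 0.17. Without blank 2, mt-Tp lay at 0.31 and mt-Tc at 0.015, without the unnumbered blank mt-Rnr1 lay at -0.31, and mt-Co1, mt-Nd5 and mt-Rnr2 kept their direction with any 1 library left out. Their sizes moved: mt-Co1 gave -0.22 without blank 2, and mt-Rnr2 gave -0.88 without the unnumbered blank and -0.40 without blank 2.

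The make-up of the mitochondrial mRNA counts also varied between libraries of a group. Complex IV took 57.7, 57.8 and 52.7% of them in the blank and 56.9, 60.8 and 44.3% in the dopamine libraries, nearly all from mt-Co1 (exact permutation p = 0.8). Complex I took 33.0, 34.8 and 36.4% against 34.2, 31.8 and 41.8% (exact permutation p = 0.9), and complex III, from mt-Cytb alone, 9.25, 7.35 and 10.9% against 8.84, 7.36 and 13.9% (exact permutation p = 0.8). For complexes I and IV the dopamine libraries held both extremes, and for complex III blank 3 and dopamine 2 were lowest and nearly equal. Complex V took 0.0369, 0.0318 and 0.0457% against 0.0457, 0.0462 and 0.0740%, with dopamine above (exact permutation p = 0.1, adjusted p = 0.28). Both of its genes are in the low set, and the unnumbered blank and dopamine 1 had almost the same value. mt-Nd6, the only mRNA gene annotated on the minus strand, took 2.51, 2.48 and 2.57% against 2.34, 3.06 and 3.93% (exact permutation p = 0.4). Without strand, its counts are those of the gene and not of minus-strand RNA alone. rRNA counts per 100 mRNA counts were 5.96, 6.80 and 3.02 against 5.01, 6.66 and 3.34 (exact permutation p = 0.9).

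Set against their nuclear partners, the summed counts of mitochondrial mRNAs were lower in each dopamine library than in each blank library. Nuclear genes for subunits of the same oxidative phosphorylation complexes took 0.858, 0.875 and 0.950% of counts in the blank and 0.933, 0.934 and 1.03% in the dopamine libraries. The log2 ratio of mitochondrial mRNA to nuclear subunit counts was 2.40, 2.18 and 2.12 in blank and 1.89, 1.64 and 1.93 in dopamine libraries (2.23 ± 0.15 against 1.82 ± 0.16, SD, n = 3). The groups did not overlap, with an exact permutation p of 0.1 and an adjusted p of 0.28. mt-Co1 weighs most in this sum: when the median log2 CPM of each set was used in place of the sum, the difference moved from -0.41 to -0.19 (exact permutation p = 0.5).

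**Figure D5:**
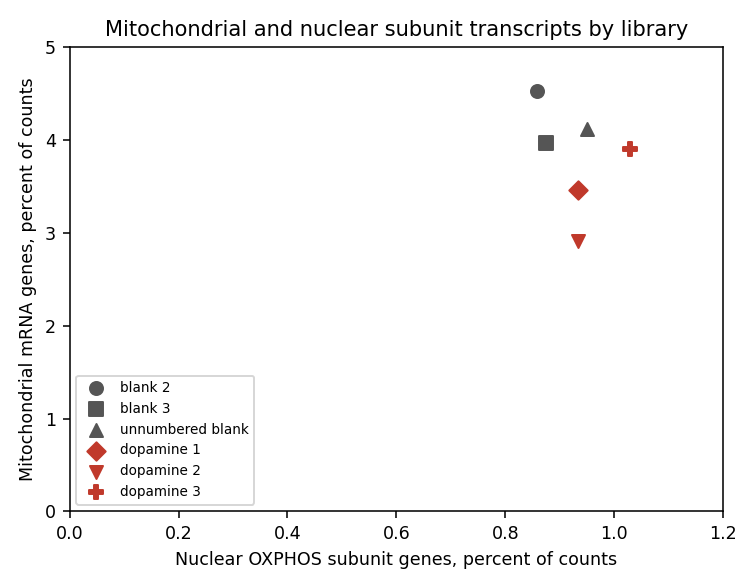
Percent of counts from the 13 mitochondrial mRNA genes (vertical) against percent from nuclear oxidative phosphorylation (OXPHOS) subunit genes (horizontal), 1 point per library. The dopamine libraries lie at 2.91 to 3.91% mitochondrial, below the blank libraries at 3.97 to 4.53%, while the nuclear shares of the groups overlap at 0.858 to 0.950% and 0.933 to 1.03%.

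Nuclear genes that maintain and transcribe the mitochondrial genome lay evenly on both sides. Of 25 members, all tested, 13 were on the higher and 12 on the lower side (median 0.0070), and 0 were called by edgeR or DESeq2. All dopamine values lay above all blank values for 1 of the 25 and below for 1, where 4 and 4.47% of all genes did so. Polrmt, the polymerase, stood at 15.7, 17.1 and 23.3 CPM in blank and 16.8, 17.5 and 14.0 CPM in dopamine libraries (-0.22 ± 0.25). Its partners Tfam, which packages mitochondrial DNA and opens promoters, Tfb2m, which melts them, and the elongation factor Tefm gave 0.26 ± 0.21, -0.13 ± 0.19 and 0.058 ± 0.27. Esrra, a nuclear receptor that drives mitochondrial genes, stood at 39.1, 39.3 and 42.4 against 51.8, 46.1 and 56.9 CPM (0.36 ± 0.17), with all dopamine values above. Gabpa, also known as a subunit of nuclear respiratory factor 2, stood at 79.7, 60.3 and 66.5 against 52.0, 57.5 and 59.6 CPM (-0.29 ± 0.18), with all dopamine values below. The coactivator Ppargc1a gave -0.14 ± 0.27, and the primase-polymerase Primpol -0.34 ± 0.31.

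Of 38 genes of mitochondrial RNA processing, stability and decay, all tested, 24 were on the higher and 14 on the lower side (median 0.076), and 0 were called. All dopamine values lay above all blank values for 2 of the 38, where they did for 4% of all genes. Lrpprc and Slirp, which bind and stabilise mitochondrial mRNAs together, gave 0.039 ± 0.31 and 0.28 ± 0.24. Fastkd5, needed for processing of transcripts that no tRNA flanks, stood at 3.70, 5.4 and 3.31 CPM in blank and 6.53, 5.61 and 6.64 CPM in dopamine libraries (0.60 ± 0.34), with dopamine above. The tRNA modifying enzyme Gtpbp3 gave 0.51 ± 0.27, the rRNA methyltransferase Mrm1 -0.30 ± 0.34, Angel2 -0.25 ± 0.24 and the oligoribonuclease Rexo2 0.13 ± 0.29. Of 34 translation factors and tRNA synthetases, all tested, 20 were on the higher and 14 on the lower side (median 0.086), with 0 called. Among them the prolyl-tRNA synthetase Pars2, which charges mt-Tp, stood at 7.41, 8.23 and 7.57 against 8.88, 9.68 and 9.28 CPM (0.26 ± 0.25), with dopamine above. Of the 34, 1 lay wholly above and 1 wholly below with dopamine, where 4 and 4.47% of all genes did so. Gatc, of the complex that makes glutaminyl-tRNA, gave 0.31 ± 0.25, and the synthetases Gars (Gars1) and Wars2 gave -0.43 ± 0.30 and -0.28 ± 0.26.

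Genes for the proteins of the mitochondrial ribosome lay mostly on the higher side. Of 82 such genes 81 were tested, 77 on the higher and 4 on the lower side, with a median log2 fold change of 0.18, where 51.7% of all genes were on the higher side. None was called by edgeR or DESeq2 after adjustment, and 4 of the 81 had an unadjusted edgeR p under 0.05, where 2.94% of all genes did. All dopamine values lay above all blank values for 12 of the 81, where they did for 4% of all genes. Without the unnumbered blank the median was 0.31, and with column sums that leave out mitochondrial genes it was 0.12. Mrpl38, a large subunit protein, stood at 55.3, 55.6 and 60.6 CPM in blank and 88.6, 94.0 and 78.5 CPM with dopamine (0.61 ± 0.17, edgeR adjusted p = 0.9997). The small subunit protein Mrps18a stood at 29.1, 28.3 and 27.6 against 35.2, 39.7 and 39.1 CPM (0.42 ± 0.17). On the lower side, Mrps21 and Mrps10 each gave less than their standard error (-0.11 ± 0.20 and -0.12 ± 0.20). Nuclear subunit genes of oxidative phosphorylation had 76 of 77 members tested, with 74 on the higher and 2 on the lower side, a median of 0.19 and 0 called. Of these 76 subunit genes, 8 had all dopamine values above all blank values, where 4% of all genes did. Without dopamine 3 their median was 0.094. The mitochondrial mRNAs themselves had 7 of 13 on that side (median 0.060), and the difference between these lists was not tested.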

How the data were processed

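Gene expression was measured by RNA-seq with a SMART-Seq HT kit and a Vazyme DNA library kit, read as 150-base pairs, per the labels' protocols. This chemistry does not mark strand. The authors deposited raw counts and FPKM values per gene, and the build is GRCm39, per the submitters' processing notes. No source used here names the aligner, the counter or the annotation. Deposited FPKM values equalled those recomputed here from the counts and exonic lengths within 0.006 for 56691 of 56691 genes in 3 libraries and for 54611 in dopamine 1, where mitochondrial genes above 100 FPKM differed by at most 0.0183%. Printed FPKM values are the recomputed ones. Not used were 2 FPKM columns that no label ties to 1 sample.

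Counts were fitted in R 4.3.3 with edgeR 4.0.16 (filterByExpr, TMM, quasi-likelihood test, 2-sided, Benjamini-Hochberg over 15420 genes, threshold 0.05), with no covariate. DESeq2 1.42.0 and limma 3.58.1 on log2(FPKM + 1) were alternatives, and all 3 were tested on simulated data. Shares and ratios were compared with an exact permutation test over the 20 splits of 3 against 3, adjusted over 14 measures. Standard errors are those of the edgeR fold change. The 95% intervals of fold changes come from the edgeR fit and reflect the spread between libraries, whereas floors of 3 counts cover counting error only. Nuclear copies were found with blastn 2.17.0 (at least 99% identity over 200 bases) and exact windows of 150 bases in GENCODE vM21 transcripts.

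The members and the 9 gene lists were chosen with earlier results of these data known. Of 294 list symbols, 276 matched by symbol and 16 by synonym, and 2 were unmatched. Named were all mRNA and rRNA genes, the tRNA genes tested, the 2 nuclear genes of smallest p in each direction per list of mitochondrial gene expression, and 8 fixed regulators. mt-Tn, mt-Tt, the nuclear copies, single cell type markers and Rn18s-rs5 were named after their values were seen.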

Additional observations from a re-analysis of the deposited data

How the results depend on the processing

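Depth and 3 libraries per group limit these results: 3 against 3 cannot give an exact permutation p under 0.1, and mt-Nd3, mt-Nd4l, mt-Atp8 and mt-Tc rest on few counts. The number of genes called went from 0 to 21 with DESeq2, and the cause was not tested. Leaving out each library in turn moved the members' median log2 fold change from -0.057 to between -0.34 and 0.17, and the medians of the transcription, RNA processing and translation lists to -0.065 to 0.014, -0.011 to 0.21 and -0.044 to 0.11. The ribosomal protein and nuclear subunit medians ran from 0.13 to 0.31 and from 0.094 to 0.25. It moved mt-Rnr1 to -0.31 to 0.26, mt-Nd1 to -0.34 to 0.18, mt-Nd2 to -0.49 to 0.025, mt-Tc to -0.98 to 0.015, mt-Atp8 to -0.088 to 0.79, mt-Atp6 to -0.12 to 0.52, mt-Co3 to -0.0070 to 0.57, mt-Nd3 to -0.69 to 0.96, mt-Nd4l to -0.40 to 0.39, mt-Nd4 to -0.64 to 0.020, mt-Nd6 to -0.30 to 0.28, mt-Cytb to -0.56 to 0.17 and mt-Tp to -0.31 to 0.31. Among nuclear genes it gave -0.25 to 0.026 for Mrps10, -0.041 to 0.15 for Tefm, -0.27 to 0.25 for Lrpprc, -0.30 to 0.11 for Ppargc1a and -0.092 to 0.33 for Rexo2. The dopamine minus blank difference ran from -0.0026 to 0.0015 points for the tRNA share, -1.38 to 0.57 for rRNA per 100 mRNA, and, in percent of mRNA, -1.73 to 3.28 for complex I, -1.07 to 2.18 for complex III and -5.48 to 2.79 for complex IV. The directions of the mRNA share, of mt-Rnr2 per mt-Rnr1, of the summed balance with nuclear subunits, and of mt-Co1, mt-Nd5 and mt-Rnr2 held in all these. With FPKM in place of counts, which divides by gene length, the differences were -1.996 points for the mRNA share of summed FPKM and -0.48 for the rRNA ratio. Under other scalings the transcription list median turned to -0.0032 (DESeq2 size factors in edgeR), -0.031 (column sums), -0.042 (sums without mitochondrial genes), -0.0031 (DESeq2) and -0.057 (limma), and mt-Rnr1 to -0.0044, -0.028, -0.043 and -0.0026 in the first 4 of these. Column sums and sums without mitochondrial genes gave -0.0016 and -0.013 for Lrpprc, and the latter gave -0.0056 for mt-Nd4l and -0.0021 for Tefm. limma gave -0.073 for mt-Nd4l, -0.033 for mt-Nd6 and -0.038 for Lrpprc, and adding the nuclear copies, chosen after seeing the data, gave -0.20 for mt-Nd4l. The numbers 2 and 3 occur in both groups, but no label says that they mark a shared batch. The difference between libraries 2 and 3 in blank had r = -0.0997 with that in dopamine across 15420 genes. With a single difference per group, this r cannot tell whether the numbers mark a batch. With these 4 libraries and the number as a replicate block, the values that turned were -0.055 for the transcription list, -0.26 for mt-Rnr1, 0.021 for mt-Cytb, 0.048 for Mrm1, 0.040 for Mrps21, 0.0064 for Mrps10 and -0.090 for Lrpprc. The same 4 libraries without the replicate block gave 0.0095 for the members' median and for mt-Nd2, -0.057, -0.23, 0.15, 0.031, 0.040 and -0.069 for the transcription list, mt-Rnr1, mt-Cytb, Mrm1, Mrps21 and Lrpprc, and -0.0046 for tRNA per 100 mRNA.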
